A study of Canis lupus familiaris with 18 samples.

Results

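The matrix metalloproteinases MMP2, MMP3, MMP9, MMP14, MMP19 and MMP27 and the tissue inhibitors of metalloproteinases TIMP1, TIMP2, TIMP3 and TIMP4 were followed across canine subcutaneous and gonadal fat. Members were all probe sets whose only gene symbol in the platform annotation was 1 of these 10 names. Each probe set pools several short probes designed against the same transcript. This gave 16 of the 42924 probe sets on the array that are not controls, for 9 of the 10 genes, and no probe set carried the symbol TIMP4. Of the 16, 12 probe sets of 8 genes reached log2 4, the floor used here, on at least 4 of 18 arrays and were tested. MMP3 did not, and was at most 3.71 on any array.

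The dogs were 9 intact female beagles aged 4 yr, all on the same diet for 24 wk and all sampled after an overnight fast. Food was offered without limit to 5 dogs, which became obese (ad libitum, dogs 2, 5, 6, 7 and 8), and was restricted in 4 dogs so that they kept their starting weight and stayed lean (control, dogs 1, 3, 4 and 9). Gonadal and subcutaneous fat of every dog were each measured on 1 array, giving 5 ad libitum and 4 control arrays of gonadal fat and as many of subcutaneous fat. Only the subcutaneous arrays are labelled as submitted before, so a depot difference and a difference between array batches cannot be told apart.

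Matrix metalloproteinases are zinc proteases that cut collagens, gelatin, laminins and other matrix proteins, and most are secreted as inactive precursors. TIMPs bind their active sites and block them, and TIMP2 also takes part, together with the membrane-anchored MMP14, in the activation of the MMP2 precursor. In fat, fibroblast-like stromal cells, endothelial cells, macrophages and adipocytes are known sources of these proteins, which take part in remodelling the matrix as fat cells enlarge. RNA levels do not show how much of a protease is active.

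Values are log2 expression, and a difference of 1 log2 unit is a 2-fold difference in signal. Adipocyte markers were high on all arrays, with list medians of 10.70 to 13.11 in gonadal and 10.25 to 13.23 in subcutaneous fat. Skeletal muscle markers stood at least 2 log2 units above the median array in gonadal ad libitum dog 2 and subcutaneous control dogs 3 and 4, and markers of ciliated and oviduct epithelium did so in gonadal ad libitum dog 6 and subcutaneous control dog 4. Each result was therefore also computed without these 4 arrays. Other marker lists set no array aside, and arrays high in them stayed in that fit. Smooth muscle and pericyte markers stood 4.19, 2.01 and 2.05 above the median array in gonadal control dogs 3 and 9 and ad libitum dog 8. Mesothelium markers stood 2.07 above it in gonadal control dog 4, and macrophage markers 2.40 in subcutaneous ad libitum dog 5. In whole fat, fewer cells of a type and less RNA per cell cannot be told apart.

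The clearest difference was between the depots: MMP2, MMP9, MMP27 and TIMP2 were lower in gonadal than in subcutaneous fat when the feeding groups were averaged. MMP2 was 11.5-fold lower, MMP9 at least 5.17-fold lower, MMP27 at least 2.53-fold lower and TIMP2 2.54-fold lower. No difference was called for MMP14, MMP19, TIMP1 or TIMP3. By probe set, 5 of 12 were called, all lower, where 16.6% of all tested probe sets were called, 8.84% of them as lower and 7.76% as higher. MMP9 and MMP27 reached the floor in subcutaneous fat only, so that any tested difference for them was bound to point this way, and the count of 5 is a description.

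MMP2, the gelatinase that is made constitutively by many stromal cells, had the largest difference among the genes measured above the floor in both depots. In gonadal fat it stood at 7.44, 8.53, 8.82, 9.18 and 8.60 in ad libitum dogs 2, 5, 6, 7 and 8, and at 10.17, 9.06, 9.18 and 8.09 in control dogs 1, 3, 4 and 9. In subcutaneous fat it stood at 9.89, 13.63, 12.29, 11.69 and 11.03 in the ad libitum dogs and at 12.79, 13.71, 13.35 and 12.04 in the control dogs, in the same order. The depots overlapped across feeding groups only, since gonadal control dog 1 lay above subcutaneous ad libitum dog 2, and within each dog the gonadal value was the lower one. The group means were 8.51 ± 0.65, 9.12 ± 0.85, 11.71 ± 1.40 and 12.97 ± 0.73 (SD) in gonadal ad libitum, gonadal control, subcutaneous ad libitum and subcutaneous control fat. Within each depot the feeding groups overlapped, and their difference was not called. Averaged over feeding, gonadal minus subcutaneous was -3.52 ± 0.43 (standard error from limma, 9 dogs, adjusted p = 7.98e-05).

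A second MMP2 probe set gave the same picture with a wider gap. It ranged from 5.80 to 8.03 on the 9 gonadal arrays and from 8.50 to 12.54 on the 9 subcutaneous ones, so the depots did not overlap. Its averaged depot difference was -4.04 ± 0.41 (adjusted p = 1.77e-05), and within dogs it ran from -6.38 in dog 5 to -2.70 in dog 2. The third MMP2 probe set lay below the floor on all 18 arrays.

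MMP9, the other gelatinase, is known from macrophages and neutrophils and is inducible. It lay between 2.46 and 2.82 on all 9 gonadal arrays, below the floor. In subcutaneous fat it stood at 5.63, 11.12, 3.38, 5.57 and 7.65 in ad libitum dogs 2, 5, 6, 7 and 8, and at 7.12, 7.55, 3.71 and 5.90 in control dogs 1, 3, 4 and 9. Thus 7 of 9 subcutaneous arrays reached the floor, dogs 6 and 4 did not, and dog 5 stood far above the others. The averaged difference had an adjusted p = 0.00398, and its bound of 5.17-fold sets the gonadal mean to the floor. The 2 further MMP9 probe sets lay below the floor throughout.

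MMP27 is a less studied family member that has been described in macrophages of human endometrium. On the 9 gonadal arrays it lay between 1.90 and 2.01, below the floor. In subcutaneous fat it stood at 2.00, 7.75, 4.60, 3.78 and 4.27 in the ad libitum dogs and at 6.15, 7.55, 6.48 and 4.62 in the control dogs. All 4 control arrays and 3 of 5 ad libitum arrays reached the floor, with dogs 5 and 3 highest, while dog 2 was as low in subcutaneous as in gonadal fat. The averaged difference had an adjusted p = 0.000892. In the RefSeq gene table of a German Shepherd assembly MMP27 lies among MMP13, MMP12, MMP3, MMP1, MMP8, MMP20 and MMP7, and of those with a probe set MMP1 alone reached the floor on any array.

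MMP14, the membrane-anchored collagenase that activates MMP2, was measured above the floor on 17 of 18 arrays. It stood at 5.56, 5.22, 5.19, 6.93 and 5.53 in gonadal fat of ad libitum dogs 2, 5, 6, 7 and 8, and at 6.24, 5.43, 5.93 and 3.35 in that of control dogs 1, 3, 4 and 9. Subcutaneous values were 4.88, 6.51, 6.41, 6.27 and 5.32 in the ad libitum dogs and 5.47, 6.77, 5.86 and 5.51 in the control dogs. The depots overlapped over most of their range, 4 dogs were lower and 5 higher in gonadal fat, and gonadal control dog 9 was the lowest array. The averaged difference was -0.43 ± 0.38 (95% interval -1.23 to 0.38, adjusted p = 0.481).

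MMP19, a secreted protease of basement membrane proteins, ranged from 4.49 to 6.03 in gonadal and from 4.47 to 6.86 in subcutaneous fat. It was lower in gonadal fat in 6 of 9 dogs. Its averaged difference was -0.61 ± 0.30 (95% interval -1.24 to 0.02, adjusted p = 0.168), so the depots overlapped and the test was not passed.

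**Figure D1:**
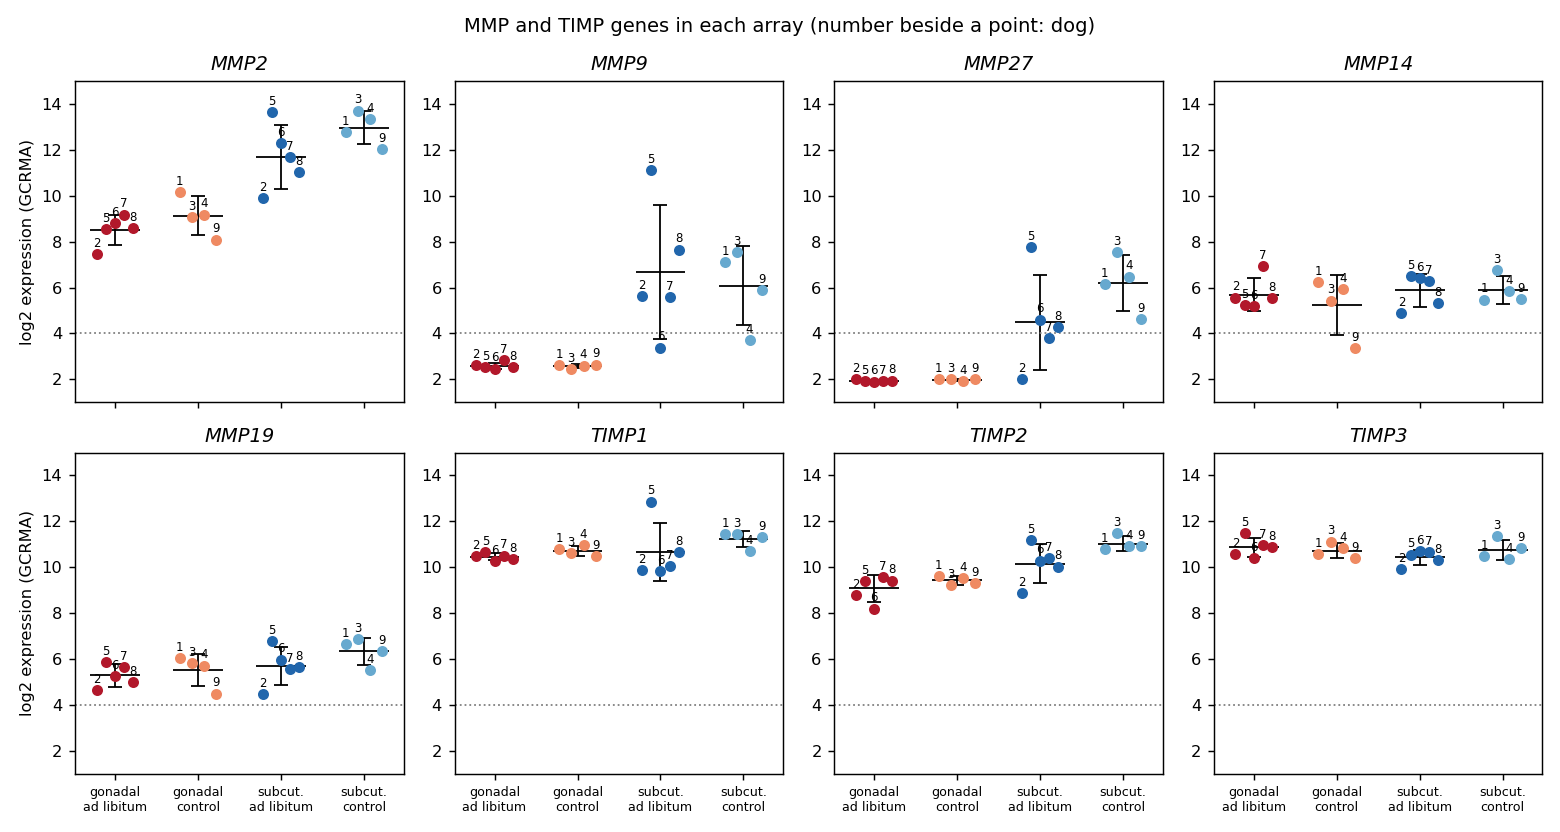
Log2 expression (GCRMA) of the representative probe set of 8 genes, 1 point per array with the dog's number, for gonadal ad libitum, gonadal control, subcutaneous ad libitum and subcutaneous control fat. Black lines are group means with SD (n = 5 or 4), and the dotted line is the floor of log2 4. MMP9 and MMP27 lie below the floor on all 9 gonadal arrays and scatter widely in subcutaneous fat, while TIMP3 keeps to 9.93 to 11.50 in both depots.

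Among the inhibitors TIMP2 alone was called between the depots with all arrays. TIMP2, which binds both MMP14 and the MMP2 precursor, stood at 8.79, 9.40, 8.20, 9.56 and 9.42 in gonadal fat of ad libitum dogs 2, 5, 6, 7 and 8, and at 9.63, 9.23, 9.53 and 9.31 in that of control dogs 1, 3, 4 and 9. In subcutaneous fat it stood at 8.86, 11.18, 10.29, 10.41 and 10.03 in the ad libitum dogs and at 10.80, 11.49, 10.91 and 10.92 in the control dogs. The depots overlapped only through subcutaneous dog 2, and TIMP2 was lower in gonadal fat in 9 of 9 dogs, by as little as 0.06 in dog 2 and as much as 2.26 in dog 3. The averaged difference was -1.34 ± 0.26 (adjusted p = 0.00262).

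TIMP1, an inducible inhibitor that pairs with the MMP9 precursor, was even across gonadal arrays and uneven across subcutaneous ones. Gonadal fat had 10.47, 10.67, 10.28, 10.51 and 10.36 in ad libitum dogs 2, 5, 6, 7 and 8, and 10.78, 10.61, 10.96 and 10.49 in control dogs 1, 3, 4 and 9. Subcutaneous fat had 9.89, 12.86, 9.84, 10.05 and 10.67 in the ad libitum dogs and 11.43, 11.45, 10.71 and 11.31 in the control dogs. Gonadal values fell inside the subcutaneous range, and in subcutaneous fat dog 5 stood apart above the others. The averaged depot difference was -0.36 ± 0.32 (adjusted p = 0.474).

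TIMP3, which stays bound to the matrix and also inhibits ADAM proteases, ranged from 10.40 to 11.50 in gonadal and from 9.93 to 11.35 in subcutaneous fat on its brightest probe set. Its averaged depot difference was 0.21 ± 0.18 (adjusted p = 0.456). The 3 other TIMP3 probe sets gave 0.46, 0.65 and 0.54 (adjusted p = 0.266, 0.139 and 0.158), and none passed. On these 3, gonadal ad libitum dog 6, 1 of the arrays with ciliated epithelium markers, was the lowest gonadal array at 6.76, 6.56 and 7.63, and subcutaneous control dog 4, which carries both marker sets, was the lowest subcutaneous array at 6.68, 5.95 and 7.12. Subcutaneous control dog 3, with muscle markers, was instead the highest subcutaneous array at 8.70, 7.97 and 8.99. Gonadal ad libitum dog 2, also with muscle markers, lay inside the gonadal range at 8.33, 8.13 and 9.00. Without the 4 arrays with muscle or ciliated epithelium markers the same 3 probe sets were higher in gonadal fat, by 0.69 ± 0.14, 0.85 ± 0.22 and 0.73 (adjusted p = 0.00963, 0.0232 and 0.0145), in a fit that called 7.09% of probe sets as higher. The brightest probe set stood at 0.38 ± 0.18 there (adjusted p = 0.166). Leaving out dog 6 alone also brought the number of called MMP and TIMP probe sets to 8. In that fit 4209 of all 21484 probe sets were called, against 3567 with all arrays.

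**Figure D2:**
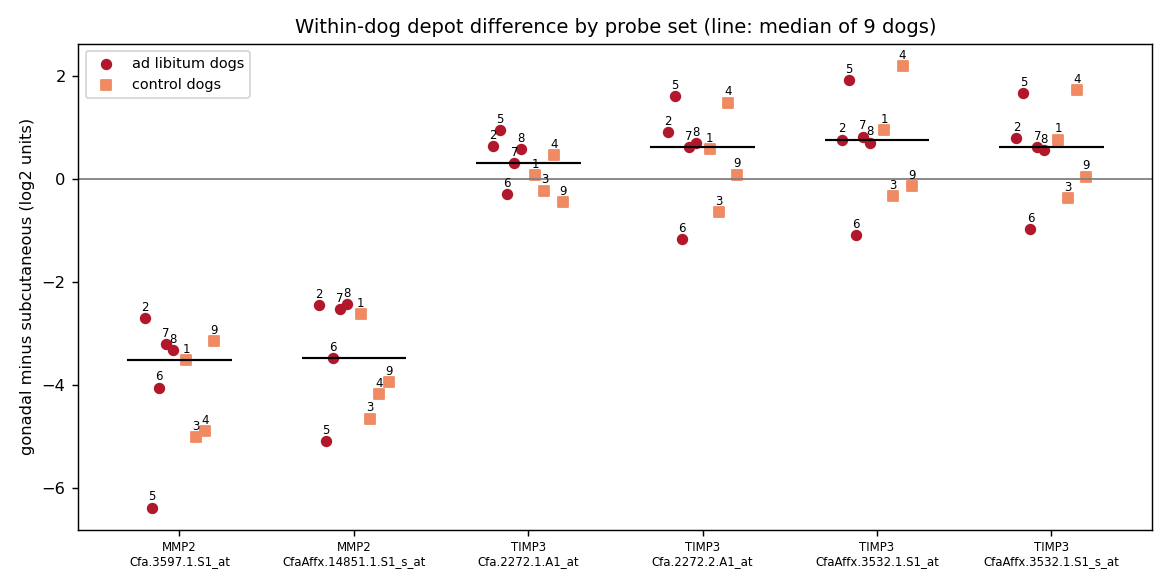
Gonadal minus subcutaneous value (log2 units) within each of 9 dogs for the 2 tested MMP2 and the 4 tested TIMP3 probe sets, circles for ad libitum and squares for control dogs, with the dog's number and a line at the median. Both MMP2 probe sets lie below 0 in 9 of 9 dogs, and dogs 6 and 3 lie below 0 on all 4 TIMP3 probe sets.

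The averaged calls without those 4 arrays also kept the direction of the others. MMP2 stood at -3.11 and -3.67 on its 2 probe sets (adjusted p = 0.00343 and 0.00135), TIMP2 at -1.07 (adjusted p = 0.0276), and MMP9 and MMP27 had adjusted p = 0.0167 and 0.0154. Here 7.13% of probe sets were called as lower.

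Set against each other as within-dog depot differences, MMP2 was displaced further than each TIMP. The MMP2 difference minus the TIMP2 difference ran from -3.31 to -1.38 over the 9 dogs, with a median of -2.34. Against TIMP1 the median was -3.03 and against TIMP3 -3.18, with MMP2 displaced more in 9 of 9 dogs each time. The same held in 9 of 9 dogs against MMP14 (median -3.18) and MMP19 (median -2.63). All of these are changes in signal of different probe sets, which need not respond equally to RNA. MMP2 had the largest averaged difference of the genes above the floor in both depots, so its larger displacement restates that result.

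Within the ad libitum dogs, 4 of 12 probe sets were lower in gonadal fat and none was higher, where 7.19% of all probe sets were called, 4.36% as lower and 2.83% as higher. They were both MMP2 probe sets (-3.19 ± 0.57, adjusted p = 0.00392, and -3.93 ± 0.55, adjusted p = 0.000614), MMP9 (at least 6.37-fold lower, adjusted p = 0.0245) and MMP27 (at least 1.39-fold lower, adjusted p = 0.0452). MMP9 and MMP27 were again bound to point this way, so the count of 4 is a description. TIMP2 stood at -1.08 ± 0.34 and missed the threshold (adjusted p = 0.0648). With the dog as a replicate block TIMP2 passed, with adjusted p = 0.033 for a random and 0.0478 for a fixed block, and MMP27 missed it with the fixed block (adjusted p = 0.0502). Without dog 2 TIMP2 passed as well (-1.33 ± 0.30, adjusted p = 0.0206). Dog 5 had the widest gap for MMP2, MMP9 and MMP27, and without dog 5 only the 2 MMP2 probe sets were called. With the subcutaneous array of dog 5 left out alone, the MMP9 bound fell to at least 2.94-fold lower (adjusted p = 0.0239), and MMP27 had no bound, since its subcutaneous mean of 3.66 was then also below the floor. The averaged bounds without that array were at least 3.51-fold for MMP9 and 1.91-fold for MMP27. Leaving out dog 7 or dog 8, or fitting without the 4 arrays with other markers, likewise cost MMP9 and MMP27 their calls, and leaving out dog 1, 4 or 6 cost MMP27 its call. In the fit without those 4 arrays MMP2 stood at -2.93 and -3.78 in ad libitum dogs (adjusted p = 0.0228 and 0.00842). There the 3 dimmer TIMP3 probe sets were higher in gonadal fat, by 0.96, 1.02 and 0.92 (adjusted p = 0.0117, 0.0455 and 0.0243), where 3.73% of probe sets were higher and 3.83% lower.

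Within the control dogs 4 of 12 probe sets were also lower and none was higher, where 2.92% of all probe sets were called, 1.82% as lower and 1.1% as higher. They were both MMP2 probe sets (-3.85 ± 0.64, adjusted p = 0.00432, and -4.14 ± 0.62, adjusted p = 0.00193), MMP27 (at least 4.59-fold lower, adjusted p = 0.0116) and TIMP2 (-1.61 ± 0.38, adjusted p = 0.0327). Here too MMP27 was bound to point this way, and the count of 4 is a description. TIMP2 did not overlap between the depots in these dogs. MMP9 was lower in all 4 control dogs, and its test was not passed (adjusted p = 0.102). The fit without the 4 marked arrays kept dogs 1 and 9 as subcutaneous controls and called the second MMP2 probe set alone (-3.55, adjusted p = 0.0475, where 0.791% of probe sets were lower and 0.796% higher), with MMP2 at -3.29 (adjusted p = 0.0653), MMP27 at -3.40 (adjusted p = 0.136) and TIMP2 at -1.44 (adjusted p = 0.128). Leaving out dog 1, 3 or 4 left the 2 MMP2 probe sets as the only calls, and TIMP2 also missed the threshold without dog 7, 8 or 9. Without the subcutaneous array of dog 5, which is no control array but adds to the shared spread, MMP9 passed (adjusted p = 0.0181).

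**Figure D3:**
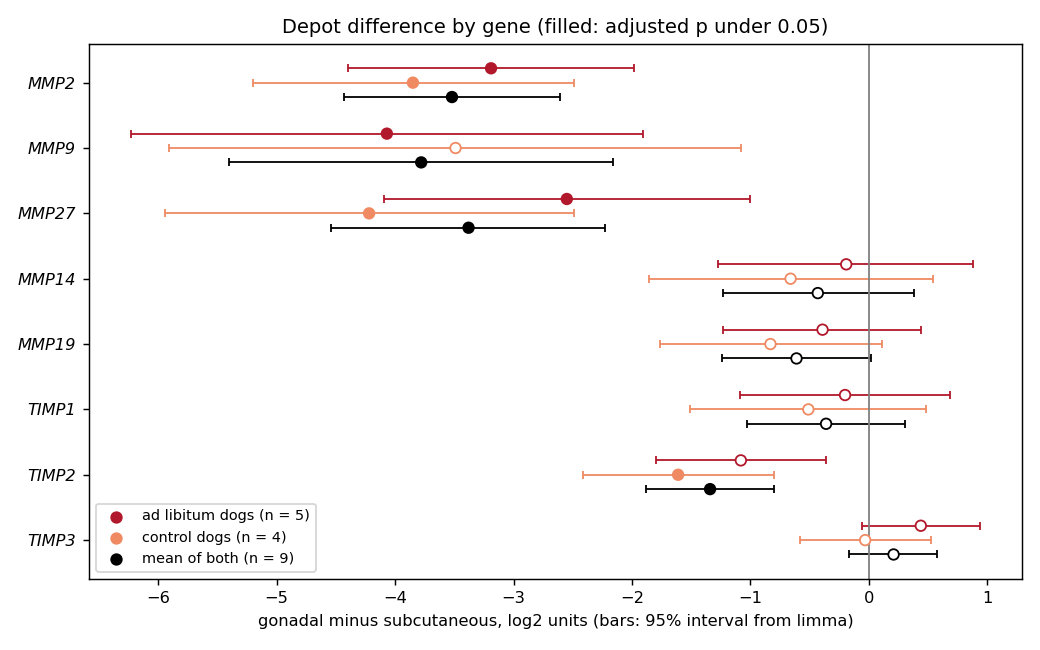
Gonadal minus subcutaneous difference (log2 units) with its 95% interval from limma for the representative probe set of 8 genes, in ad libitum dogs (n = 5), control dogs (n = 4) and averaged over both (n = 9). Filled points passed at an adjusted p under 0.05. MMP2, MMP9 and MMP27 lie farthest to the left, and the sizes for MMP9 and MMP27 are not exact because their gonadal means are below the floor.

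Marker genes of stromal cells moved between the depots with the MMPs. Of 12 fibroblast and progenitor markers 7 were lower in gonadal fat and none was higher (median difference -0.87, against -0.01 over all 8650 genes), among them PI16 at -3.56 ± 0.37, DPP4 at -3.40 ± 0.58, COL1A1 at -1.87 ± 0.28 and FAP at -2.39 ± 0.54. The median level of that list ran from 8.10 to 10.45 on gonadal and from 8.70 to 11.60 on subcutaneous arrays. Of 14 tested macrophage markers 6 were lower (median -0.82), including CD68 at -2.00 ± 0.45, and the list level ran from 6.00 to 7.52 on gonadal and from 6.59 to 9.32 on subcutaneous arrays. Of the neutrophil list, 7 of 11 genes had a probe set and 2 were tested. S100A8 and S100A9, calcium-binding proteins abundant in neutrophils and monocytes, were above the floor on all 18 arrays. They stood at -0.08 ± 0.48 and 0.20 ± 0.62 between the depots (adjusted p = 0.93 and 0.862). Of the untested ones, the granule genes MPO, ELANE and CAMP lay below the floor in every group. LTF and CSF3R averaged 4.31 and 4.14 in subcutaneous ad libitum fat, with 2 of 5 arrays at the floor. In the other groups both averaged below the floor, at 2.99 and 3.60 in gonadal ad libitum fat. In the other direction 5 of 6 mesothelium markers were higher in gonadal fat and CALB2 was lower, and 5 of 8 smooth muscle and pericyte markers were higher, where 9.7% of all genes were lower and 7.17% higher. None of 10 endothelial and 14 adipocyte markers passed. The part of these cell types in the MMP and TIMP differences was not tested.

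A measure of RNA quality was uneven across the groups. Actin signal near the 3' end minus that near the 5' end, larger in more degraded RNA, averaged 3.31 ± 0.91, 2.91 ± 0.91, 3.49 ± 0.77 and 4.76 ± 1.01 (SD) in gonadal ad libitum, gonadal control, subcutaneous ad libitum and subcutaneous control arrays. With it as a covariate the 5 averaged depot calls remained 5 in number, and in control dogs MMP27 and TIMP2 were no longer called. Their differences there were -3.77 ± 1.05 for MMP27 (adjusted p = 0.0991, against -4.22 without the covariate, sizes that are not exact because its gonadal mean is below the floor) and -1.73 ± 0.49 for TIMP2 (adjusted p = 0.107, against -1.61 without it).

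Feeding gave no call for any MMP or TIMP in subcutaneous fat, 0 of 12 probe sets by limma, where 2.36% of all probe sets were called, 0.451% as lower and 1.9% as higher. For 7 of 8 genes the ad libitum mean was the lower one. MMP2 stood at -1.27 ± 0.61 (95% interval -2.55 to 0.02, adjusted p = 0.217) and TIMP2 at -0.88 ± 0.36 (95% interval -1.64 to -0.12, adjusted p = 0.161). MMP27 stood at -1.72 ± 0.77 (95% interval -3.36 to -0.08, adjusted p = 0.192), with ad libitum dogs 2 and 7 below the floor at 2.00 and 3.78. MMP19 stood at -0.66 ± 0.42, TIMP1 at -0.56 ± 0.45, TIMP3 at -0.33 ± 0.25 and MMP14 at -0.02 ± 0.54, and MMP9 was the gene with the positive sign, at 0.60 ± 1.08 (adjusted p = 0.766). In each of these genes the ad libitum and control arrays overlapped. Skeletal muscle markers and the actin measure moved with this comparison: all 10 tested muscle markers had a negative difference (median -3.59), none passed, and the list level ran from 2.87 to 4.49 in ad libitum and from 2.72 to 11.88 in control arrays. Without the 4 arrays with muscle or ciliated epithelium markers, of which 2 are subcutaneous control arrays, MMP2 stood at -0.71 ± 0.77 (adjusted p = 0.695), MMP27 at -0.91 ± 1.02 (adjusted p = 0.705) and TIMP2 at -0.71 ± 0.42 (adjusted p = 0.451), where 0.0186% of all probe sets were lower and 0.00465% higher. With the actin measure as a covariate MMP2 stood at -1.18 ± 0.72 (adjusted p = 0.527), MMP27 at -1.41 ± 0.90 (adjusted p = 0.547) and TIMP2 at -0.96 ± 0.42 (adjusted p = 0.381).

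A single array, that of ad libitum dog 5, set much of this spread. It had the highest subcutaneous MMP9, MMP27 and TIMP1 and was exceeded only by control dog 3 for MMP2 and TIMP2. The same array had the highest macrophage marker level, 9.32 against 6.59 to 8.06 in the other ad libitum and 6.92 to 8.11 in the control dogs. Ad libitum dog 2 lay at the other end, lowest for 6 of 8 genes and lowest for the fibroblast list (8.70). Control dog 3 was highest for 5 of 8 genes and for the fibroblast list (11.60). The subcutaneous range was wider than the gonadal one for 7 of 8 genes, MMP14 being the exception.

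**Figure D4:**
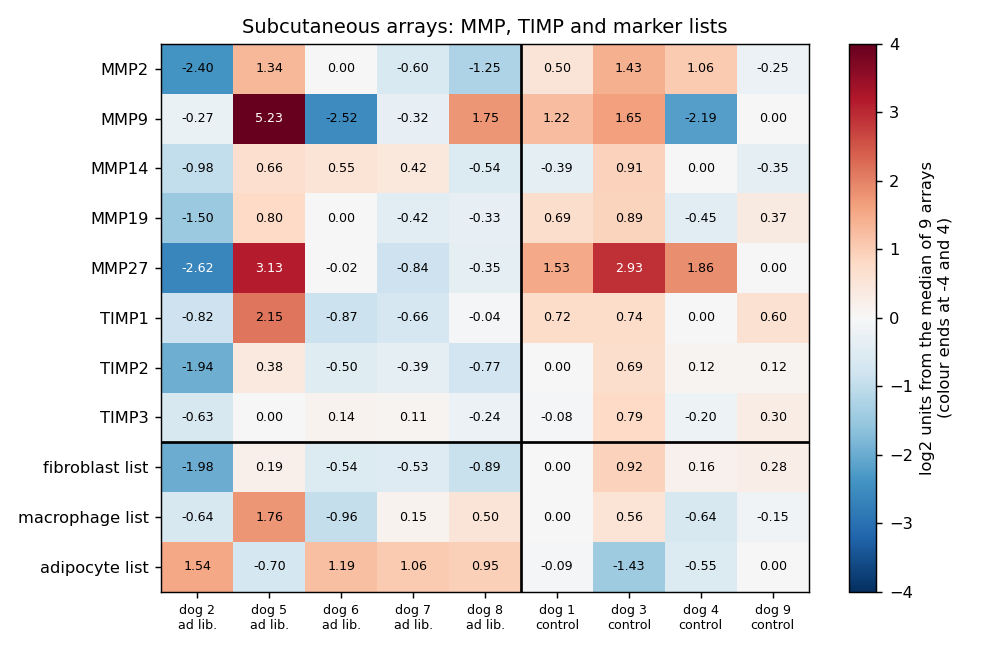
Deviation of each of 9 subcutaneous arrays from their median (log2 units, colour and number) for 8 MMP and TIMP genes and the medians of 3 marker lists, with ad libitum dogs left of control dogs. Dog 5 stands out for MMP9 (5.23), MMP27 (3.13), TIMP1 (2.15) and the macrophage list (1.76), and dog 2 for low MMP2 (-2.40), TIMP2 (-1.94) and fibroblast list (-1.98).

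Without the subcutaneous array of dog 5, a setting chosen after its values had been seen, 5 of 12 probe sets were lower with ad libitum feeding and none was higher, where 4.31% of all probe sets were lower and 9.44% higher. MMP2 stood at -1.75 ± 0.53 (adjusted p = 0.0414) and -1.80 (adjusted p = 0.0196) on its 2 probe sets, MMP27 at -2.54 ± 0.53 (adjusted p = 0.00904), TIMP1 at -1.11 ± 0.20 (adjusted p = 0.00482) and TIMP2 at -1.13 ± 0.33 (adjusted p = 0.0356). The MMP27 size is not exact, because the mean of the remaining 4 ad libitum arrays, 3.66, lay below the floor. MMP9 changed sign to -0.51 ± 0.77 (adjusted p = 0.681). The remaining 4 ad libitum arrays lay below the lowest control array for TIMP2. For TIMP1 and MMP27 they lay below it by a narrow margin. TIMP1 was 10.67 in dog 8 against 10.71 in dog 4, whose array carries other markers, and MMP27 was 4.60 in dog 6 against 4.62 in dog 9. The share of all probe sets that separate in this way is not given, so the separation only describes these arrays. With every array kept the MMP2, MMP27, TIMP1 and TIMP2 differences were not called and the feeding groups overlapped for each, and nothing in the labels sets dog 5 apart. The fit without dog 5 keeps the 2 control arrays with other markers, and without all 4 such arrays the MMP2 and MMP27 differences were smaller than with every array, as given above.

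**Figure D5:**
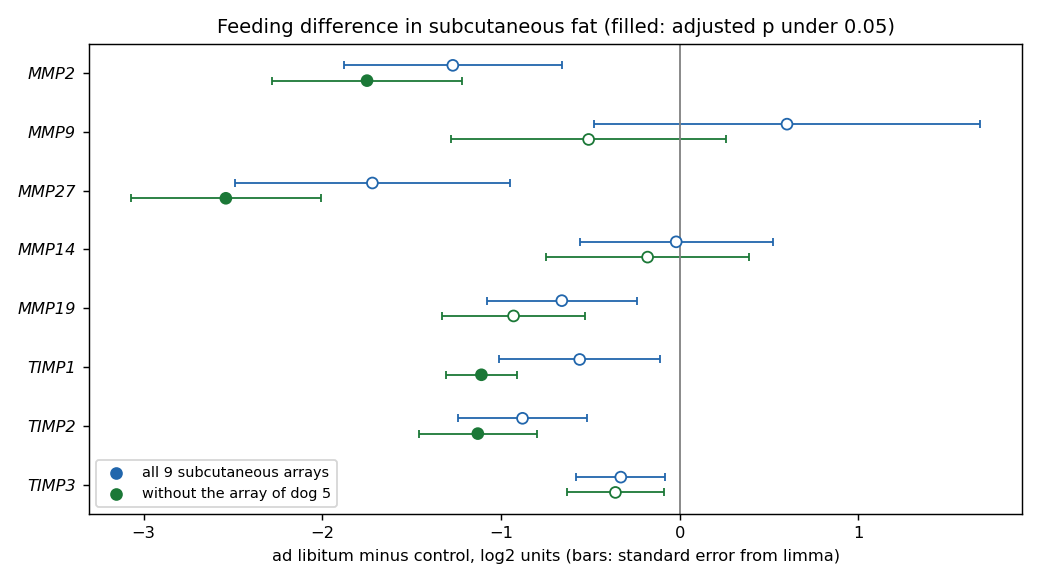
Ad libitum minus control difference in subcutaneous fat (log2 units, bars are standard errors from limma) for 8 genes, with all 9 subcutaneous arrays and without the array of dog 5. No point is filled (adjusted p under 0.05) with all arrays, and MMP2, MMP27, TIMP1 and TIMP2 are filled without dog 5. The MMP27 size without dog 5 is not exact, because its ad libitum mean of 3.66 is then below the floor.

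Other lists moved beside these values in subcutaneous fat. The fibroblast list level averaged 9.93 ± 0.79 in ad libitum and 11.02 ± 0.40 in control arrays (SD), 11 of its 12 genes had a negative difference and none passed, where 0.347% of all genes were lower. The macrophage list averaged 7.72 ± 1.07 and 7.50 ± 0.49. Of 14 adipocyte markers LEP, the fat-mass hormone (2.71 ± 0.67, adjusted p = 0.0468), and DGAT2, a triglyceride-forming enzyme (2.35 ± 0.56, adjusted p = 0.041), were higher, where 1.97% of all genes were higher, and all 14 were positive. Whether these shifts bear on the MMP and TIMP values was not tested.

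In gonadal fat feeding also gave no call, 0 of 12 probe sets, where 0% of 21484 were called by limma, 531 of them with an unadjusted p under 0.05, and 0 with a trended and robust moderation. MMP2 stood at -0.61 ± 0.61 (95% interval -1.89 to 0.67) and at -1.05 ± 0.58 on its second probe set. On the second probe set the 5 ad libitum arrays (5.80 to 7.18) lay below the 4 control arrays (7.20 to 8.03), by 0.02 at the closest, and on the representative one the groups overlapped. How many of all probe sets separate like this in gonadal fat is not given, so the separation is a description. TIMP1 stood at -0.25 ± 0.45, TIMP2 at -0.35 ± 0.36, TIMP3 at 0.14 ± 0.25, MMP14 at 0.45 ± 0.54 and MMP19 at -0.23 ± 0.42. MMP9 and MMP27 were below the floor in both groups and have no difference.

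The interaction of feeding and depot was called for none of the 12 probe sets, with 0% of all probe sets called, 1344 at an unadjusted p under 0.05. The gonadal minus subcutaneous feeding difference was 0.65 ± 0.86 for MMP2 (adjusted p = 0.849) and 0.53 ± 0.51 for TIMP2 (adjusted p = 0.80). No MMP or TIMP was thus shown to respond to feeding in a depot-dependent way.

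With the mean of its depot-by-feeding group taken from each value, all 28 pairs of the 8 genes had a positive Pearson r across the 18 arrays, with a median of 0.60, where 50.2% of all pairs of the 8650 tested genes were positive and their median was 0.00. Without subcutaneous dog 5 the median was 0.41 and 25 pairs were positive. MMP9 and MMP27 lay below the floor on all 9 gonadal arrays, so their r rest on the subcutaneous arrays. Among the other 6 genes 15 of 15 pairs were positive (median 0.64), and 14 without subcutaneous dog 5 (median 0.57). Across the 18 arrays the closest pair was MMP9 and TIMP1 (r = 0.91, 0.92 over the 9 subcutaneous arrays and 0.82 without subcutaneous dog 5). Over the 9 subcutaneous arrays MMP2 and MMP27 were closer, with r = 0.95 (0.79 across the 18 arrays and 0.66 without subcutaneous dog 5). The arrays share dogs and RNA quality, and these r are descriptions.

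The genes most like each member on the same residual values, 3 per member, were as follows. MMP2 ran with PLXDC1, a receptor known from tumour endothelium (r = 0.90), with THBS2, a matricellular glycoprotein (r = 0.89), and with SERPINB1, an inhibitor of neutrophil proteases (r = 0.88). TIMP2 ran with ANTXR2, a collagen-binding receptor (r = 0.92), CLEC3B, the plasminogen-binding tetranectin (r = 0.92), and PLXDC1 (r = 0.91). MMP27 ran with P3H4, which takes part in collagen modification (r = 0.92), ATP1B3 (r = 0.91) and CTSK, the collagen-cutting cathepsin K (r = 0.88). All of these r stayed at 0.82 or above without subcutaneous dog 5 except those of P3H4 (0.77) and CTSK (0.67).

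MMP9 ran with WRAP73 (r = 0.95), TIMP1 and BIN2 (r = 0.88), and without subcutaneous dog 5 WRAP73 was at 0.89 and BIN2 at 0.71. TIMP1 ran with CD14, the monocyte co-receptor for lipopolysaccharide (r = 0.95), ATP6V0D2 (r = 0.93) and COMP (r = 0.92), and without subcutaneous dog 5 these were 0.77, 0.41 and 0.30, so the likeness of the last pair rests on that array. MMP14 ran with LRP1, an endocytic receptor that clears proteases (r = 0.89), VAT1 (r = 0.89) and NBL1 (r = 0.87). MMP19 ran with RAB3IL1 (r = 0.88), THBS3 (r = 0.86) and RAB31 (r = 0.86), and TIMP3 with COLEC12, a scavenger receptor (r = 0.90), CAPRIN2 (r = 0.87) and PCNP (r = 0.86).

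Other genes of the pathway were called in both directions between the depots, where 9.7% of all genes were lower and 7.17% higher. Of 14 further MMP genes with a probe set 3 were tested: MMP16, a membrane-type MMP, was lower in gonadal fat (-1.55 ± 0.45, adjusted p = 0.0262), MMP28 was higher (1.08 ± 0.36, adjusted p = 0.0485), and MMP11 was not called. Of 11 tested regulators TFPI2, a serine protease inhibitor of the matrix, was higher (2.27 ± 0.40, adjusted p = 0.0017), and PCOLCE, an enhancer of procollagen processing (-1.65 ± 0.31, adjusted p = 0.00258), and CD44, a hyaluronan receptor that can hold MMP9 at the cell surface (-1.78 ± 0.38, adjusted p = 0.00521), were lower. Of 7 tested ADAM and ADAMTS genes ADAMTS2, the procollagen N-propeptidase, was lower (-1.35 ± 0.33, adjusted p = 0.011). The 1 higher gene among 11 regulators and the 1 lower gene among 7 ADAM and ADAMTS genes are near the share over all genes.

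Among 25 tested matrix substrates 10 were lower in gonadal fat and LAMB1, a laminin chain, was higher, with a median of -0.34 against -0.01 over all genes. The lower ones included the collagen chain COL1A1 (-1.87 ± 0.28, adjusted p = 0.000466), the microfibril protein FBN1 (-1.77 ± 0.27, adjusted p = 0.000499), fibronectin, FN1 (-1.58 ± 0.27, adjusted p = 0.00142), and COL6A1 (-1.45 ± 0.28, adjusted p = 0.00297). COL1A1, DCN and LUM are on both this list and that of fibroblast markers. For feeding, none of the tested genes of these 4 lists passed in either depot.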

How the data were processed

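Total RNA of subcutaneous and gonadal fat was hybridised to Affymetrix canine arrays after biotin labelling, per the labels' protocols. The deposited log2 expression values were computed by the authors with GCRMA, per the submitters' processing notes. The base of the logarithm is not given in the sources used here and was read as log2 because the values run from 0.68 to 16.51, with array medians of 3.65 to 3.87. Scanner files were not used here, and the number of arrays limits the precision.

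Of 43035 probe sets 111 were array controls. Of the others 29254 had 1 gene symbol, 439 several and 13231 none listed, and none was named from several. Symbols were checked against the RefSeq gene table. Probe sets at log2 4 or more on at least 4 of 18 arrays (21484) were tested with limma 3.58.1 and statmod 1.5.0 in R 4.3.3, 4 group means over 18 arrays, no block, two-sided, Benjamini-Hochberg over all tested probe sets, threshold 0.05. Moderation added 2.54 to 14 residual degrees of freedom. A group mean below the floor of log2 4 was set to it for a bound ("at least"). For gene-level counts the probe set with the highest mean stood for the gene (8650 tested genes). Errors after ± are standard errors unless SD is given. The fit was tested on simulated data.

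All members were named. Of each other list up to 4 genes were named, those past the threshold with the smallest p for the averaged depot comparison, plus those past it for feeding. CALB2, LAMB1, MMP11, S100A8, S100A9, MPO, ELANE, CAMP, LTF, CSF3R and the neighbours of MMP27 fall outside this rule and were chosen after their values were seen. The members and lists were chosen with earlier results of these data known.

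The animal number in the labels pairs the depots of a dog. Deviations of a dog's arrays from their group means correlated at -0.05 to 0.53 (median 0.26), and 4 of 9 dogs matched their own other depot best. The labels name 1 array per depot and dog, so p-values measure the spread between dogs and arrays together. Alternatives were other filters, normalizations and moderation, fits limited to the arrays compared, the dog as a replicate block, the actin signal as a covariate, and leaving out arrays or dogs. The alternative without subcutaneous dog 5 was chosen after seeing the data.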

Additional observations from a re-analysis of the deposited data

Results flagged for a closer look

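Of 28 groups of values looked at, 2 held an array far from the rest of its group. Chance gives about 1 in 20, so 2 of 28 is near that rate. MMP14 in gonadal fat of ad libitum dog 7 was 6.93, the next highest array of that group being 5.56, a gap of 0.787 of the group's range. TIMP1 in subcutaneous fat of ad libitum dog 5 was 12.86, the next highest being 10.67, a gap of 0.726 of the range. MMP14 in dog 7 was 6.27 in subcutaneous fat, inside its group. TIMP1 in dog 5 was 10.67 in gonadal fat, the highest of its group by a small margin.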

How the results depend on the processing

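Over 38 differences of single genes and 20 settings, 738 values were computed. Of these 676 kept their direction and their side of the threshold, 31 lost the call, 12 gained it and 19 changed sign, all 19 among differences not called with all arrays (smallest adjusted p = 0.29). The averaged depot calls of MMP2, MMP9, MMP27 and TIMP2 held under every setting run. In depot comparisons with all arrays 4 probe sets were called in ad libitum dogs, 4 in control dogs and 5 averaged. In ad libitum dogs 2 were called with no filter and 2 with only the arrays of the comparison. In control dogs 2 were called with the actin covariate and 1 without the 4 marked arrays, which called 8 averaged. Feeding in subcutaneous fat had 0 calls, and 5 without subcutaneous dog 5. Leaving out each dog in turn gave 0 to 4 for feeding in subcutaneous fat (4 without dog 5), 2 to 5 for each depot comparison within a feeding group, 5 to 8 averaged, and 0 for gonadal feeding and for feeding by depot. Dog 5 was the dog whose omission brought the 4. Over all 21484 probe sets the same fits called 497 to 1620 for depot in ad libitum dogs, 143 to 1050 in control dogs and 2099 to 4209 averaged. The cause of these changes was not tested, beyond the fewer arrays in the fits that leave some out.

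With the dog as a replicate block the paired fits changed 2 calls, both in ad libitum dogs: TIMP2 gained its call (adjusted p = 0.033 random, 0.0478 fixed) and MMP27 lost it in the fixed block (adjusted p = 0.0502). The within-dog correlation of the random block was 0.168.

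Values whose sign turned lay between -0.51 and 0.39, and none was called. For MMP14 they were 0.03 with arrays centred on their median and 0.39 without the marked arrays (feeding, subcutaneous), and 0.02 without the marked arrays (depot, ad libitum). TIMP2 was at 0.03 (feeding, gonadal) and TIMP3 at 0.07 (depot, control) without the marked arrays. Without subcutaneous dog 5 MMP9 was at -0.51 (feeding, subcutaneous) and TIMP1 at 0.35 (depot, ad libitum). Leaving out a dog gave -0.18 to 0.27 for MMP14 and -0.51 to 1.43 for MMP9 (feeding, subcutaneous), -0.18 to 0.78 for MMP14 and -0.02 to 0.27 for TIMP3 (feeding, gonadal), -0.41 to 0.08 for MMP14 and -0.40 to 0.29 for TIMP1 (depot, ad libitum), and -0.19 to 0.11 for TIMP3 (depot, control).

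Counts over all probe sets moved more. For feeding in subcutaneous fat 506 were called, against 173 with no filter, 309 after quantile normalization again, 60 with only the arrays of the comparison, 1 with the actin covariate, 5 without the marked arrays and 2956 without subcutaneous dog 5, and 3 to 2703 leaving out a dog. For depot in control dogs 627 were called, against 275 with no filter, 412 with only its arrays, 1346 with the random block, 199 with the actin covariate and 341 without the marked arrays. For depot in ad libitum dogs 1545 were called, against 984 with only its arrays and 2495 with the random block. GCRMA signals below the floor carry no order, which limits MMP9 and MMP27 in gonadal fat to bounds.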

Other observations

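MMP1, the interstitial collagenase, is not among the members and was looked at after its values were seen. Its 2 probe sets stood at 7.43 and 6.26 in gonadal fat of control dog 4, while on the other gonadal arrays they lay between 1.97 and 3.32, below the floor. On subcutaneous arrays the first reached 4.11 in control dog 3 and was 3.64 or less elsewhere. The subcutaneous array of dog 4 had 3.34 and 2.00, so the high value belongs to 1 depot of 1 dog.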
